A study of Mus musculus with 6 samples.

Results

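The genes described here are 10 genes of the integrated stress response and its neighbour, the unfolded protein response, measured in the quadriceps of AR97Q mice with and without running exercise. They are the transcription factors Atf4, Atf5, Atf3, Ddit3 (which encodes CHOP) and Xbp1, the pseudokinase gene Trib3, the glutathione-degrading enzyme Chac1, and the amino acid enzymes Asns, Phgdh and Psat1. They were taken from a list of names and found on the array by matching each probe's transcript accession to a reference table of mouse genes. All 10 were present, with 16 probes between them, and all 16 probes were well above background on each of the 6 arrays. They are 10 of the 25005 genes and transcripts tested.

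The AR97Q line is a transgenic mouse model of SBMA, spinal and bulbar muscular atrophy, a disease of motor neurons and muscle caused by a lengthened polyglutamine tract. Its mice carry a human transgene with an expanded CAG repeat on a C57BL/6J background. All 6 mice were male, were 9 weeks old and carried the transgene. The 3 mice of the exercise group had run on a motor-driven wheel in repeated sessions during the weeks before motor deficits begin, and the 3 mice of the sedentary group had not. The paper states that tissue at 9 weeks was taken on the day after the last session. No earlier time after a session was measured. No array of wild-type muscle was used here, so every difference below is between 2 groups of transgenic mice. Total RNA from each mouse was labelled with 1 dye and hybridized to 1 array, and the values below are log2 signals from which the 75th percentile of the same array was subtracted. A value of 0 is thus the 75th percentile of the array, and levels of different genes are not set against each other because each probe binds with its own strength.

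All arrays lay on 1 slide and were scanned once, and each had 54.6 to 59.9% of its probes well above background. The layout was not balanced. The barcode of each array holds numbers that were read here as a strip and a position on the slide. By these the 3 exercise arrays and sedentary 1 lay on strip 1, and sedentary 2 and 3 lay on strip 2. Group and strip can therefore not be fully told apart. The 75th percentile of the signal was 251 to 257 on the exercise arrays and 310 to 384 on the sedentary arrays, a difference that bears on every scaling below. Genes that mark muscle fibres identified the tissue. At an adjusted p under 0.05 in limma, 7 of 10 such genes were higher in the exercise group. Among all genes tested 11.5% were higher and 6.12% lower at this threshold. The array mean of the list was 8.03 to 8.27 in the exercise group against 7.23 to 7.62 in the sedentary group. The 7 were Acta1, Ckm, Mb, Tnnt3, Mylpf, Myh4 and Pygm, while Ttn (0.28), Des (0.15) and Neb (-0.06) did not pass. The paper reports more fast-twitch fibres in this muscle after exercise, and the list does not separate fibre type from fibre amount. Of 17 genes listed as denervation markers 11 were lower, with array means of 0.93 to 1.15 against 1.70 to 2.70. Chrne, which is in the list and its mean, was the only 1 of the 17 with a positive log2 fold change. It was at 0.71 and did not pass the test (limma adjusted p = 0.062). Quantile normalization left 4 fibre genes higher, with a median log2 fold change of 0.38 in place of 0.86, and 10 denervation genes lower. Leaving out any single array other than sedentary 1 left 0 of either list past the test. With the strip as a block, which leaves the comparison with sedentary 1 alone, the median of the fibre genes was 0.53. That of the denervation genes was -0.64 in place of -1.185. In whole muscle a smaller number of cells of one type and less RNA per cell cannot be told apart, and this holds for every gene named below.

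The integrated stress response begins with a kinase that phosphorylates the initiation factor eIF2. This slows translation in general while favouring that of a few messages, ATF4 among them, so that ATF4 protein can rise without any change in Atf4 mRNA. ATF4 then switches on genes for amino acid uptake, amino acid synthesis and redox balance, as well as Atf3, Ddit3 and Trib3. In skeletal muscle this programme is known as a response to mitochondrial dysfunction and to shortage of amino acids. XBP1 and ATF6 belong to separate branches that respond to unfolded protein in the endoplasmic reticulum, and XBP1 becomes active after its mRNA is spliced by IRE1. An array of this kind measures mRNA and neither eIF2 phosphorylation nor ATF4 protein, and Xbp1 splicing was not measured separately.

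ATF4 binds, together with a C/EBP partner, to a short composite site, the C/EBP-ATF response element. The letters TGATGNAA, searched on both strands in the 250 bases before and the 50 bases after each start site, were found in 4 of the 10 promoters, those of Asns, Atf3, Chac1 and Trib3. Among all 32851 promoters of the same length 3.97% held them. The 4 stretches are shown because they hold the letters of this element, which are in capitals. They are RefSeq sequence of build GRCm38.p6, written 5′ to 3′ along the strand of the gene.
Asns, chr6:7693210-7693268, minus strand: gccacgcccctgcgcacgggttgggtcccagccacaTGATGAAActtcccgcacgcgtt
Atf3, chr1:191183400-191183479, minus strand: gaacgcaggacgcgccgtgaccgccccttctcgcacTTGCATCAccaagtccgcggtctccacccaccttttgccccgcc
Chac1, chr2:119351013-119351092, plus strand: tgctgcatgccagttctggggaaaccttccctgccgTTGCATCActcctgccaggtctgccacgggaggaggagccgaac
Trib3, chr2:152344028-152344057, minus strand: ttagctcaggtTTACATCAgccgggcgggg

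Counted from the start site, with bases before it negative, the element lay at -23 to -16 in Asns, at -110 to -103 in Atf3 and at -193 to -186 in Chac1. In Trib3 it lay at 15 to 22, within the transcribed part. The letters in capitals were the same in Atf3 and Chac1. In Asns the element read forward along the gene, and in the other 3 it read on the opposite strand. The endoplasmic reticulum stress element, CCAAT followed after 9 bases by CCACG, was in 0 of the 10 promoters, in 7 of 21 promoters of XBP1 and ATF6 branch genes and in 0.119% of all. The ACGT core that XBP1 and ATF6 prefer was in 5 of the 10 promoters and in 30.9% of all promoters. These matches describe the letters in the window and do not show that a factor binds there.

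The 10 genes did not move as a block. Atf4 mRNA was higher in the exercise group and Asns mRNA was lower, while the other 8 genes did not pass the test (limma, adjusted p under 0.05 over all genes tested). Of all genes tested 11.5% were higher and 6.12% were lower at this threshold, 17.6% in either direction, so 2 of 10 is close to the share of the array. None of the 10 reached the study's threshold for a differentially expressed gene, which adds a log2 fold change of at least 1 and which 2.78% of all genes reached. In 3 of the 10 genes, Atf4, Atf5 and Asns, the values of the groups did not overlap, and 43.2% of all genes showed the same. Log2 fold changes were positive for 5 genes and negative for 5, with a median of -0.01 beside 0.03 for all genes. With 3 mice against 3 an exact permutation test of a single gene cannot go below p = 0.1, so the calls rest on the spread that limma shares across genes.

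**Figure D1:**
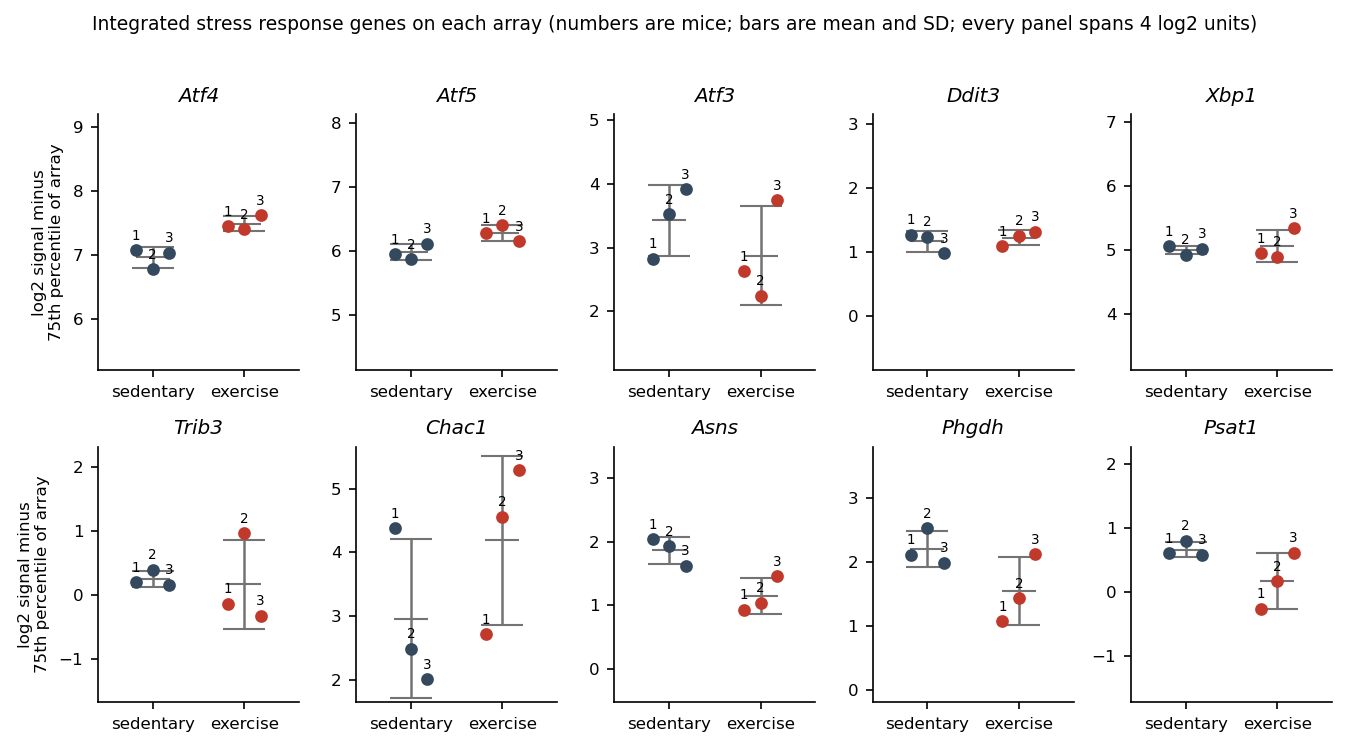
Log2 signal of the 10 genes on each array after subtraction of the array's 75th percentile, with each point a mouse, numbered by replicate, and bars giving the mean and SD of 3 mice. The exercise points lie above the sedentary points for Atf4 and Atf5 and below them for Asns, and Chac1 spans 3.27 log2 units over the 6 mice.

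Atf4, the central factor of the response, had values of 7.45, 7.40 and 7.62 in the exercise group and of 7.07, 6.78 and 7.04 in the sedentary group. Every exercised mouse was above every sedentary mouse. The log2 fold change was 0.53 (SE 0.12, 95% interval 0.25 to 0.81, limma adjusted p = 0.034), which is 1.44-fold. A second, dimmer probe of Atf4 gave 2.93, 2.98 and 3.17 against 2.43, 2.26 and 2.61. Its log2 fold change was 0.59, again with no overlap (limma adjusted p = 0.032 with each probe fitted on its own).

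The size of the Atf4 difference depended on how the arrays were brought to a common scale. Before any scaling the signal of the brighter probe was 44919, 43382 and 49319 in the exercise group and 41804, 40679 and 50349 in the sedentary group, so the highest of the 6 values came from a sedentary mouse. Unscaled, the log2 fold change was 0.06, where the median of all genes was -0.45. Quantile normalization gave 0.19 (limma adjusted p = 0.336) for the brighter probe and 0.48 for the dimmer one, and the deposited table of values gave 0.37 (limma adjusted p = 0.107). Leaving out exercise mouse 1, 2 or 3 or sedentary mouse 2 or 3 ended the call, with log2 fold changes of 0.44 to 0.58 and limma adjusted p up to 0.110 over all 6 omissions.

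Atf5, a related factor that is translated under the same control and takes part in the mitochondrial stress response, ran in the same direction with a smaller difference. Its values were 6.28, 6.40 and 6.16 in the exercise group against 5.95, 5.87 and 6.12 in the sedentary group. All exercised mice were above all sedentary mice, though exercise mouse 3 lay only just above sedentary mouse 3. For Atf5 the log2 fold change was 0.30 (SE 0.11, 95% interval 0.04 to 0.57) and did not pass the test (limma adjusted p = 0.103). The second Atf5 probe gave 0.33. Without scaling the value was -0.17.

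**Figure D2:**
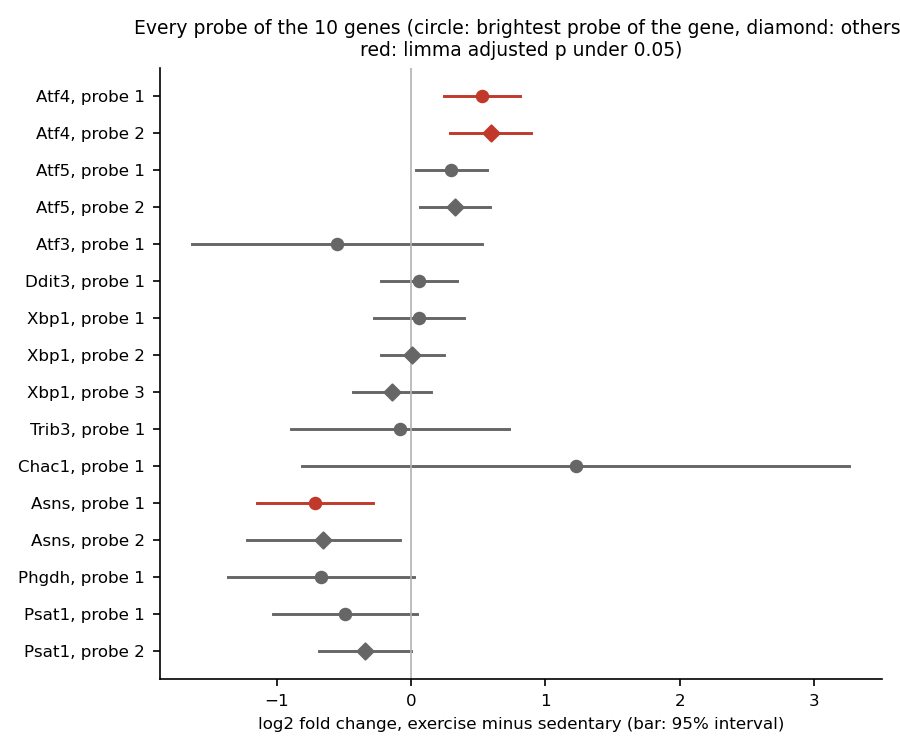
Log2 fold change, exercise minus sedentary, of each of the 16 probes of the 10 genes, with bars for the 95% interval, circles for the brightest probe of a gene and diamonds for its other probes. Both Atf4 probes and the brighter Asns probe are red, which marks an adjusted p under 0.05 in limma, and the interval of Chac1 is the widest, from -0.81 to 3.26 with each probe fitted on its own.

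Atf3, an immediate early factor that stress and muscle contraction both induce, varied more between mice than between groups. The exercise values were 2.63, 2.25 and 3.74 and the sedentary values 2.83, 3.53 and 3.92. Exercise mouse 3 was above 2 of the 3 sedentary mice. This gave a log2 fold change of -0.55 (SE 0.45, 95% interval -1.64 to 0.54, limma adjusted p = 0.409).

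Ddit3, whose product CHOP promotes cell death under lasting stress, had the narrowest range of the 10. Its exercise values were 1.09, 1.25 and 1.31 and its sedentary values 1.27, 1.23 and 0.98, a range of 0.33 log2 units over all mice. Exercise and sedentary means differed by 0.06 on the log2 scale (SE 0.12, 95% interval -0.22 to 0.34, limma adjusted p = 0.747).

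Xbp1, the factor of the IRE1 branch, gave 4.95, 4.90 and 5.35 in the exercise group and 5.06, 4.93 and 5.02 in the sedentary group. Exercise mouse 3 stood above the other 5 mice, which lay close together. Its log2 fold change was 0.06 (SE 0.14, 95% interval -0.27 to 0.40, limma adjusted p = 0.770), and the other Xbp1 probes gave 0.01 and -0.14.

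Trib3, a pseudokinase that binds ATF4 and restrains it, had values of -0.14, 0.96 and -0.33 in the exercise group and of 0.20, 0.39 and 0.16 in the sedentary group. Exercise mouse 2 was the highest of the 6 and exercise mice 1 and 3 were the lowest, so the exercise group enclosed the sedentary group. Its mean difference on the log2 scale was -0.08 (SE 0.34, 95% interval -0.90 to 0.73, limma adjusted p = 0.878).

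Chac1, which breaks down glutathione and is a sensitive readout of ATF4 and CHOP activity, was the most variable of the 10 genes. Its values were 2.72, 4.56 and 5.29 in the exercise group and 4.38, 2.49 and 2.02 in the sedentary group. Sedentary mouse 1 was close to exercise mouse 2, and exercise mouse 1 was close to sedentary mouse 2. Over the 6 mice the signal differed 9.62-fold, a range wider than that of 99.3% of the genes tested. The log2 fold change of 1.23 had an SE of 0.85 and a 95% interval of -0.83 to 3.28 and did not pass the test (limma adjusted p = 0.333), and it ran from 0.68 to 1.96 as each array was left out. Against sedentary mouse 1 alone, the only sedentary array on the same strip of the slide as the exercise arrays, it was -0.19. For Atf4 that comparison gave 0.42 and for Asns -0.89.

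Asns, Phgdh and Psat1 had negative log2 fold changes, and of these only Asns passed the test. Asns, which makes asparagine from aspartate and glutamine and is a classic target of ATF4, had values of 0.93, 1.04 and 1.46 in the exercise group and of 2.03, 1.93 and 1.62 in the sedentary group. No exercised mouse reached the lowest sedentary mouse. The log2 fold change was -0.72 (SE 0.18, 95% interval -1.15 to -0.28, limma adjusted p = 0.043), so the exercise level was 0.609 of the sedentary level. A second, much fainter probe gave -0.65 without overlap and did not pass the test (limma adjusted p = 0.103), and with normexp background correction it gave -0.11. The brighter Asns probe passed the test under quantile normalization (-0.74), with the deposited table (-0.87), with normexp (-0.67) and without scaling (-1.19). The call was lost when any 1 of the 6 mice was left out, with values from -0.87 to -0.61 and limma adjusted p from 0.061 to 0.136, and when the probes of the gene were averaged (-0.68, limma adjusted p = 0.051).

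Phgdh, the enzyme of the first step of serine synthesis, had exercise values of 1.08, 1.43 and 2.12 and sedentary values of 2.11, 2.53 and 1.99. Exercise mice 1 and 2 were below all sedentary mice and exercise mouse 3 was among them. The log2 fold change was -0.67 (SE 0.29, 95% interval -1.36 to 0.03, limma adjusted p = 0.148). Psat1, the next enzyme of serine synthesis, showed the same arrangement, with -0.26, 0.17 and 0.62 against 0.61, 0.80 and 0.59. Its log2 fold change was -0.49 (SE 0.22, 95% interval -1.03 to 0.05, limma adjusted p = 0.166), and a faint second probe gave -0.34, or 0.15 with normexp background correction. Neither serine gene passed the test.

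Within the exercise group the order of the mice was alike for several of these genes. Exercise mouse 3 was the highest of its group for 8 of the 10 genes, all but Atf5 and Trib3, and for 32.9% of all genes. Exercise mouse 1 was the lowest of its group for Asns, Chac1, Ddit3, Phgdh and Psat1, and for 28.2% of all genes. Adipocyte marker genes had the same order over the exercise mice, with array means of 2.81, 3.24 and 4.26, and means of 4.06, 4.25 and 3.92 over the sedentary mice. Of these 8 genes 7 had a negative log2 fold change, with a median of -0.85, but only Lep passed the test, and it was higher (0.35). Schwann cell and nerve markers were at 0.16 to 0.41 in the exercise group and 0.58 to 0.85 in the sedentary group. None of the 10 macrophage, 8 fibroblast and 8 endothelial markers passed the test. The part of adipocytes, nerve and denervation in the values of Asns, Phgdh and Psat1 was not tested.

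**Figure D3:**
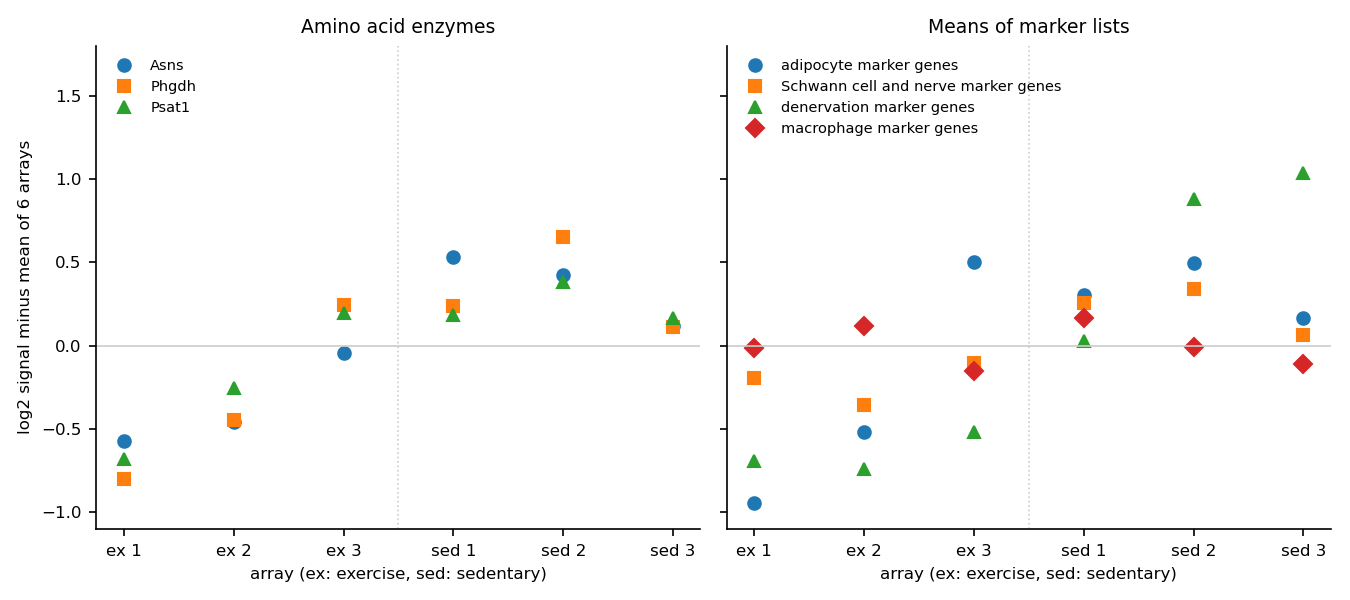
Log2 signal on each array as the difference from the mean of 6 arrays, for Asns, Phgdh and Psat1 on the left and for the means of 4 marker lists on the right. The enzymes and the adipocyte mean are lowest on exercise array 1 and higher on exercise array 3, denervation markers are above their mean on the sedentary arrays alone, and macrophage markers stay near 0.

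The wider pathway was described with lists of genes that are not among the 10. Each count below stands beside 11.5% higher and 6.12% lower among all genes tested, and no list was tested as a set. The first list held 17 genes, of eIF2 kinases, eIF2 subunits, phosphatase subunits and eIF2B, with Impact, Dnajc3 and Eif2a among the 17. Of these 17 genes 1 was higher and 0 were lower, with a median log2 fold change of 0.10. The one was Eif2s2, the beta subunit of eIF2, at 0.41 (limma adjusted p = 0.037). Quantile normalization gave 0.19 for Eif2s2 and no scaling gave -0.06, neither past the test. The kinase genes did not pass the test, with Eif2ak3 (PERK) at -0.26 and Eif2ak1 (HRI) at -0.01. Eif2ak2 (PKR) at -0.32 (limma adjusted p = 0.053) and Eif2ak4 (GCN2) at -0.31 (limma adjusted p = 0.060) came close. In both the groups did not overlap, as in 43.2% of all genes. Of this list 2 genes were lower with the deposited table, with no filter on dim probes and with the filter on all 6 arrays.

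Of 24 other target genes of ATF4 and CHOP 22 were tested, and 2 were higher and 0 lower, with a median of 0.03. Vldlr, a receptor for triglyceride-rich lipoproteins, had values of 4.58, 4.62 and 4.87 against 4.05, 3.80 and 3.76, a log2 fold change of 0.82 (limma adjusted p = 0.023), and a second probe gave 1.06. Gpt2, the mitochondrial alanine aminotransferase, had values of 3.78, 3.43 and 4.05 against 3.10, 2.55 and 2.45, a log2 fold change of 1.05 (limma adjusted p = 0.033). Gpt2 thereby reached the threshold of a differentially expressed gene, but not after quantile normalization (0.93) or without scaling (0.58), where it still passed the test, nor with the deposited table (0.90, limma adjusted p = 0.052), where it did not. Vldlr passed the test under these settings too, at 0.63, 0.35 and 0.66. Fgf21, the hormone that muscle releases in mitochondrial disease, and Slc7a11, the cystine transporter, were not well above background on any array. Gdf15, another stress hormone of muscle, was measured and gave -0.03. The lowest fold changes of the list were those of Ddit4 (-1.17, limma adjusted p = 0.188) and Gadd45a (-1.01, limma adjusted p = 0.051), and Gadd45a also stands in the denervation list.

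The response element was in 7 of 20 promoters of these target genes. That of Vldlr is shown as the one of the 7 whose gene passed the test, in RefSeq sequence of GRCm38.p6 with the element in capitals, at -200 to -193 from the start.
Vldlr, chr19:27216784-27216863, plus strand: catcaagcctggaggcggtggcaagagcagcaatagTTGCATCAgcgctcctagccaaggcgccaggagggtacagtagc

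Of the 10 genes and the pathway lists, the genes found to hold the element that passed the test were Vldlr and, as given next, Slc1a4 and Yars, which were higher, and Asns, which was lower. Atf3, Chac1, Trib3, Nupr1, Herpud1, Pycr1, Jdp2, Aars, Gars, Iars, Tars and Eif2s3x held it too and did not pass. Of the 371 tested genes found to hold the element 12.4% were higher and 4.04% lower. Among the 12434 tested genes whose promoter was searched 11.8% were higher and 4.23% lower. Some listed genes had no promoter to search, so a gene not named here may still hold it.

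Amino acid transporters, which ATF4 also controls, gave 2 higher and 0 lower of 9 tested, with a median of -0.11. Slc3a2, the heavy chain shared by several transporters, was at 0.78 (limma adjusted p = 0.024), but its other probe gave -0.07, and without scaling it was at 0.30 and did not pass. Slc1a4, a carrier of serine and other neutral amino acids, was at 0.36 (limma adjusted p = 0.039), at 0.27 after quantile normalization and at -0.12 without scaling, neither of these past the test. Slc7a5, the light chain that pairs with Slc3a2 to carry leucine, was at 0.22 and did not pass. Slc7a3 was not well above background on any array.

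Serine, glycine and one-carbon enzymes beyond Phgdh and Psat1 gave 0 higher and 0 lower of 12 at an adjusted p under 0.05 in limma, with a median of 0.06. Psph, the last enzyme of serine synthesis, was at 0.42 (limma adjusted p = 0.069), opposite in sign to Phgdh and Psat1. The mitochondrial folate enzymes Mthfd2 and Aldh1l2, known markers of ATF4 activity in muscle with mitochondrial disease, were at 0.27 and 0.48 and did not pass the test.

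Of 20 cytosolic aminoacyl-tRNA synthetases, which charge tRNAs and include many ATF4 targets, 1 was higher and 0 were lower, with a median of 0.06. It was Yars, the tyrosine enzyme, at 0.50 (limma adjusted p = 0.024), and 0.42 after quantile normalization, where it passed too. It did not pass without scaling (0.03), with the deposited table (0.35) or as a mean of its probes (0.35). A second, faint Yars probe gave 0.21. The response element was in 5 of 13 promoters of this list, Yars among them.

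Of 26 genes of the XBP1 and ATF6 branches 1 was higher and 1 lower, with a median of -0.11. Sec61b, a subunit of the channel through which proteins enter the endoplasmic reticulum, was at 0.64 (limma adjusted p = 0.025) and, without scaling, at 0.16, not past the test. Atf6, the sensor that gives its branch its name, was at -0.59 (limma adjusted p = 0.027), and its values of 0.92, 1.09 and 0.91 in the exercise group were all below 1.37, 1.66 and 1.66 in the sedentary group. Hspa5, the chaperone BiP and the most used marker of endoplasmic reticulum stress, was at -0.12 (limma adjusted p = 0.544). Its partner Hsp90b1 was at -0.08 and Dnajb9 at 0.11, neither past the test.

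Mitochondrial proteostasis genes gave 2 higher and 0 lower of 12, with a median of 0.20. They were the chaperonin Hspe1 at 0.42 (limma adjusted p = 0.036) and the protease subunit Clpp at 0.37 (limma adjusted p = 0.034). Quantile normalization gave 0.20 and 0.21, and no scaling gave -0.05 and -0.11, none of them past the test. Dele1, which carries mitochondrial stress to the eIF2 kinase HRI, was at 0.30 (limma adjusted p = 0.067). Leaving out any single array other than sedentary 1 left none of the genes named from the pathway lists past the test, and leaving out sedentary 1 ended the calls of Eif2s2 and Hspe1.

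**Figure D4:**
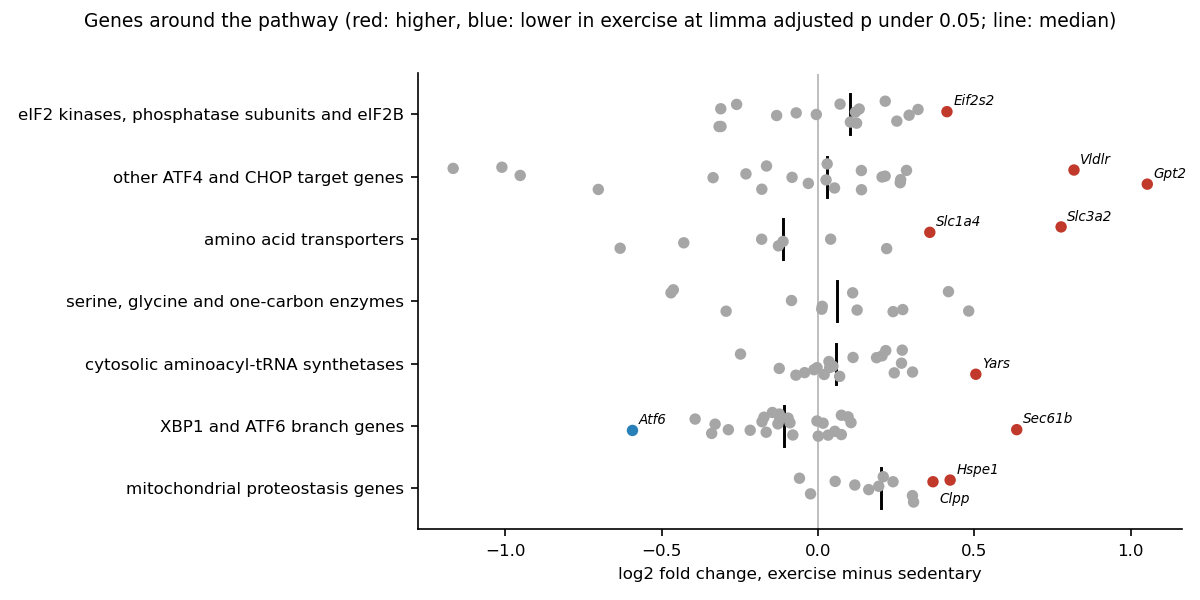
Log2 fold change, exercise minus sedentary, of every tested gene of the 7 pathway lists, with a line at the median of each list and the genes past an adjusted p of 0.05 in limma named in red when higher and in blue when lower. The medians run from -0.11 to 0.20, and 9 genes are red and 1, Atf6, is blue. Among all genes tested 11.5% were higher and 6.12% lower at this threshold.

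The deposited table and the lack of scaling shifted all genes by the same amount, while quantile normalization lowered Atf4 and Atf5 and hardly moved Asns and Psat1. The median of all genes was 0.03 with the 75th percentile, -0.02 after quantile normalization, 0.09 with normexp, -0.13 in the deposited table and -0.45 without scaling. Asns, Phgdh, Psat1, Atf3 and Trib3 were negative and Chac1 and Atf4 positive under each of these 5, and Ddit3, Xbp1 and Atf5 took both signs. Without scaling Asns, Phgdh (-1.14), Psat1 (-0.96) and Ddit3 (-0.42) passed the test as lower, at a setting in which 11280 genes did.

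**Figure D5:**
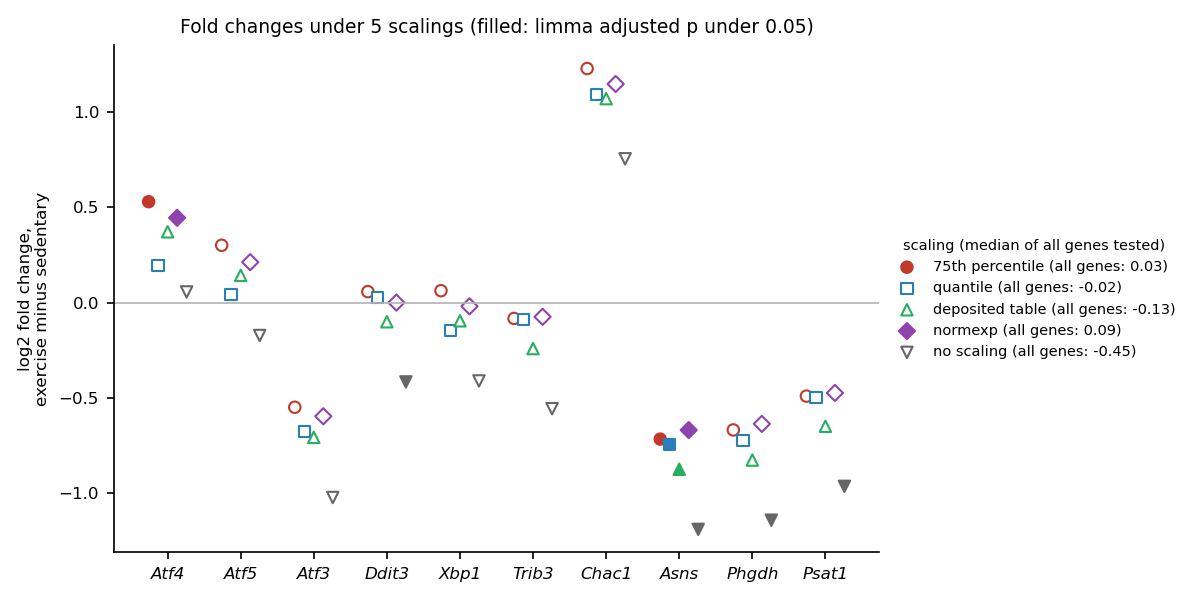
Log2 fold change, exercise minus sedentary, of the 10 genes under 5 scalings of the arrays, with filled symbols for an adjusted p under 0.05 in limma and the median of all genes under each scaling in the legend. Atf4 is filled with the 75th percentile and normexp, and Asns is filled under all 5.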

How the data were processed

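Quadriceps RNA of 3 exercise and 3 sedentary mice was measured on 1-colour Agilent SurePrint G3 mouse arrays. The authors deposited 1 scanner file per array from Feature Extraction 12.1.0.3, with a processed signal intensity per spot from which background was subtracted and spatial trends removed. They also deposited a table of values, which was found to be that intensity multiplied by 1 factor per array (1.33 to 1.88). The study names iDEP and gives no scaling of the arrays.

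Control spots (3671 of 62976) and outlier-flagged spots were dropped, the deposited intensities of the rest were put on a log2 scale, repeated spots were averaged and arrays were aligned at the 75th percentile. A probe was kept if it was well above background on 3 or more of the 6 arrays (32726 of 56605), and 22 probes with a missing value were left out. Probe accessions, without versions, were matched to RefSeq genes of GRCm38.p6 for names. Of the probes 34566 matched and 22039 kept their own identifier. No array coordinates were used. The probe with the highest mean stood for a gene, and 25005 genes and transcripts (15745 with a matched name) were tested. Promoters came from the RefSeq table of the same assembly.

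Groups, taken from the sample titles, were compared by moderated linear models without covariates (limma 3.58.1 under R 4.3.3, two-sided), adjusted by Benjamini-Hochberg over all genes tested. Whether the mice were littermates is not given in the sources used here, and the p-values measure only the spread between these 6 samples. Array number limits the precision. All 10 genes with every probe were named. From each pathway list the 3 genes past the threshold with the largest change were named, with those needed to say what a count holds. The 10 genes and the lists were chosen with earlier results of these data known, so list counts are descriptions. Alternatives were quantile normalization, no scaling, the deposited table, normexp (offset 50), other filters on dim probes, the mean of a gene's probes, each probe alone, each array left out, the replicate number and the strip of the slide as blocks, and the study's fold change minimum. Each probe under each scaling was added after the data were seen.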

Additional observations from a re-analysis of the deposited data

How the results depend on the processing

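Of the 10 genes 1 was higher and 1 lower, among 2868 higher and 1530 lower of all genes tested. Quantile normalization (0 of the 10 higher, 1865 of all genes higher), no scaling (0 higher and 4 lower, 617 and 11280 of all genes), the deposited table (0 higher, 1172 and 3201 of all genes) and the fold change minimum of the study (0 higher, 0 lower) ended or moved counts. Normexp raised the genes higher overall to 6173 and the lack of a filter to 9741, and the mean of a gene's probes left 0 of the 10 lower. Leaving out 1 array gave 0 to 1 of the 10 higher and 0 lower, and 0 to 3476 higher and 0 to 2060 lower of all genes, the highest without sedentary 1. In the omissions with 0 and 0 calls, 6686 to 8146 genes had an unadjusted p under 0.05 in limma. The replicate number as a block gave 0 and 0 calls in limma, for the 10 and for all genes (8591 at an unadjusted p under 0.05), with Atf4 at an adjusted p of 0.064 and Asns at 0.110. Deviations of samples with the same number correlated at 0.02, 0.08 and 0.04, so the numbers were not taken as pairs. The strip as a block, which leaves the comparison with sedentary 1 alone, gave 0 higher and 3 lower of all genes and 0 of the 10 (4827 at an unadjusted p under 0.05). The cause of these shifts was not tested.

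Signs turned for genes that had not passed the test. Xbp1 was at -0.15 after quantile normalization, -0.41 without scaling, -0.10 in the deposited table, -0.020 with normexp and -0.023 as a mean of probes. Ddit3 was at -0.42 without scaling, -0.10 in the deposited table, -0.00017 with normexp and -0.050 in the strip block. Atf5 was at -0.17 without scaling. In the strip block Atf3 was at 0.047 and Chac1 at -0.19. Over the omissions of 1 array Trib3 ran from -0.48 to 0.16, Xbp1 from -0.078 to 0.14 and Ddit3 from -0.033 to 0.12, and no other of the 10 changed sign, with Atf3 from -0.98 to -0.23, Phgdh from -0.96 to -0.44 and Psat1 from -0.71 to -0.27. The second Psat1 probe was at 0.15 with normexp. Second probes of Asns and Psat1 were faint, though well above background on all 6 arrays.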

Other observations

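Promoters with the C/EBP-ATF response element were also counted over all tested genes that had a promoter to search. Of 12434 tested genes whose promoter was searched, 11.8% were higher with exercise and 4.23% lower. Of the 371 among them that hold the element, 12.4% were higher and 4.04% lower, and the median log2 fold change was 0.03 in both sets. These shares are descriptions with no test.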
